A study of Mus musculus with 4 samples.

Results

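The loci described here are the small nuclear and miscellaneous small RNA loci that reached a level of at least 1 FPKM in mouse liver. FPKM counts fragments for each kilobase of a gene and scales them to a library total. The members were the rows of the expression table with the biotype snRNA or misc_RNA, other than Rn7sk, whose mean over the 4 libraries was at least 1 FPKM. That rule kept 48 loci, 40 snRNA and 8 misc_RNA, of 1947 rows with those biotypes and of 54149 genes in all. The loci were thus chosen by their mean FPKM, so their levels are given as a description. The difference between genotypes was not used in the choice.

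The study compared livers of adult females with a liver-specific Utx knockout (Utx KO, 2 libraries) with livers of wild-type mice (WT, 2 libraries). Utx, also named Kdm6a, encodes a histone H3 lysine 27 demethylase. All mice were of a C57BL/6 x 129S4/SvJae background. All had fasted for 16 h and received acetaminophen (APAP) by intraperitoneal injection at 300 mg/kg, so no group shows liver without the drug. Each library was made from poly(A)-selected RNA of a pool of 2 mice. The sources used here do not name the promoter that drives the deletion, and cells outside its reach keep Utx.

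Small nuclear RNAs are the RNA cores of the spliceosome. U1 and U2 recognise the 5′ splice site and the branch point, and U6, unwound from U4, pairs with the 5′ splice site and forms part of the catalytic centre. U6 and 7SK are transcribed by RNA polymerase III, and mature spliceosomal RNAs carry no long poly(A) tail. Mammalian genomes also hold many copies derived from U6, most of which are regarded as pseudogenes.

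The data went against the name of small nuclear RNAs for this set. A chosen list of 19 reference genes with these biotypes was looked up by name, with no U4 gene among them. None of the 19, among them Rnu1a1 (U1), Rnu2-10 (U2), Rnu5g (U5), Rnu6 (U6), Rnu11, Rnu12, Rnu7, Rny1 and the signal recognition particle RNA gene Rn7s1, reached the threshold. Of these, 12 were listed at 0 in every library and 7 had some reads, together 33 reads over the 4 libraries and at most 8 in a single library. A count of 0 allows up to 3 reads, which is 0.168 to 0.184 RPM (reads per 1000000 listed reads). Rmrp and Rpph1, the RNAs of RNase MRP and RNase P, were also listed at 0 in every library. All 48 members were instead loci with a predicted-gene name (Gm and a number), and they are called the 48 loci below.

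By sequence, 33 of the 48 loci were related to U6, 4 to 7SK, 2 to U1 and 1 to Y RNA, and 8 matched none of the named small RNAs used for comparison. The match was a blastn search on the same strand with an expect value of at most 0.001. The RNAs used for comparison held no U4 and no minor spliceosome forms of U4 and U6. Some U6 matches were short, such as 20 bases in Gm25014 and 24 in Gm24776. Identity to Rnu6 over a global alignment was as low as 47.7% in the U6-related Gm25772. Gm25220, which had no match, was 72.0% identical to Rnu6, so the border of the U6-related group is not sharp. The heptamer ACAGAGA, the part of U6 that pairs with the 5′ splice site, was present on the sense strand in 18 of the 48, of which 17 were U6-related. Only 8 of the 33 U6-related loci were at least 90% identical to Rnu6 over a global alignment.

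The sequences of Gm22107 and Gm22378 are shown because both loci had among the most reads and lay lower in Utx KO livers together with the gene around them. They are from GENCODE release M21 on GRCm38 and are written 5′ to 3′ on the strand of the gene. Neither holds ACAGAGA, so no base is in capitals.
Gm22107: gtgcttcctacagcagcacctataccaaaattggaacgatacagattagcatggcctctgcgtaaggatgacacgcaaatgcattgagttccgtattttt
Gm22378: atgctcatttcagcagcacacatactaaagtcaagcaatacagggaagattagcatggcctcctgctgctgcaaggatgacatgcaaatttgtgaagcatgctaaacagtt

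Gm22107 (chr15:77840657-77840756, minus strand) was 81.3% identical to Rnu6 and Gm22378 (chr11:109499714-109499824, minus strand) 76.8%. Gm22935 was 75.2% identical to Rnu6 and also lacked the heptamer. The sequence of Gm25047, the locus with the most reads, was 78.5% identical to Rnu6 and held the heptamer. The sequence of Gm29163 occurs at 5 loci among the annotated snRNA, misc_RNA and ribozyme transcripts, and every other full member sequence was unique among these. Transcripts of other types, such as those of host genes, were not searched. The sources used here do not say how reads that map to several copies were assigned.

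Most of the 48 loci lay inside other genes. In GENCODE M21, 40 were in an intron of another gene, 21 with the host on the same strand and 19 with the host on the opposite strand. The host is the overlapping gene with the highest mean level, and 3 of the 19, Gm23966, Gm24927 and Gm24776, also lie in a second gene on their own strand. Another 4 overlapped an exon: Gm25082 shared 59 coding bases with Clk4, a kinase of splicing factors, and Gm22392 lay with all 107 bases in a noncoding exon of Eny2, a subunit of a histone deubiquitinase module. Gm22146 shared 9 bases with AC154912.1, and Gm27861 shared 17 with Hotairm1. The remaining 4, Gm25047, Gm24045, Gm26180 and Gm26424, overlapped no other gene of that release. The wider gene spans of RefSeq on GRCm38.p6 placed Gm25047 inside Lonrf3 and Gm26424 inside Acnat1, so 46 of the 48 were spanned by another gene in one of the annotations. Strand marking of the libraries is not stated, so reads of a locus and of the gene that overlaps it cannot be told apart.

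The depth behind these levels was low. The deposited FPKM were whole multiples of a single-read step in 100% of values above 0 within 0.01 read, which gave back whole reads. The libraries held 17804730 and 16330451 listed reads in Utx KO, against 16580979 and 16669038 in WT. The 48 loci were 56 to 316 bases long, so a single read in the 107-base Gm22392 was worth 0.554 FPKM. The median locus had 3.75 reads on average over the libraries, 40 of the 48 had under 10, 31 had under 5, and 14 were at 0 in at least 1 library. Gm27861 stood just inside the threshold, with 0.786 and 0.818 FPKM in Utx KO and 0.829 and 1.78 FPKM in WT. Gm24457 stood just outside, with a mean of 0.987 FPKM (2 and 3 reads in Utx KO, 0 and 2 reads in WT).

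**Figure D1:**
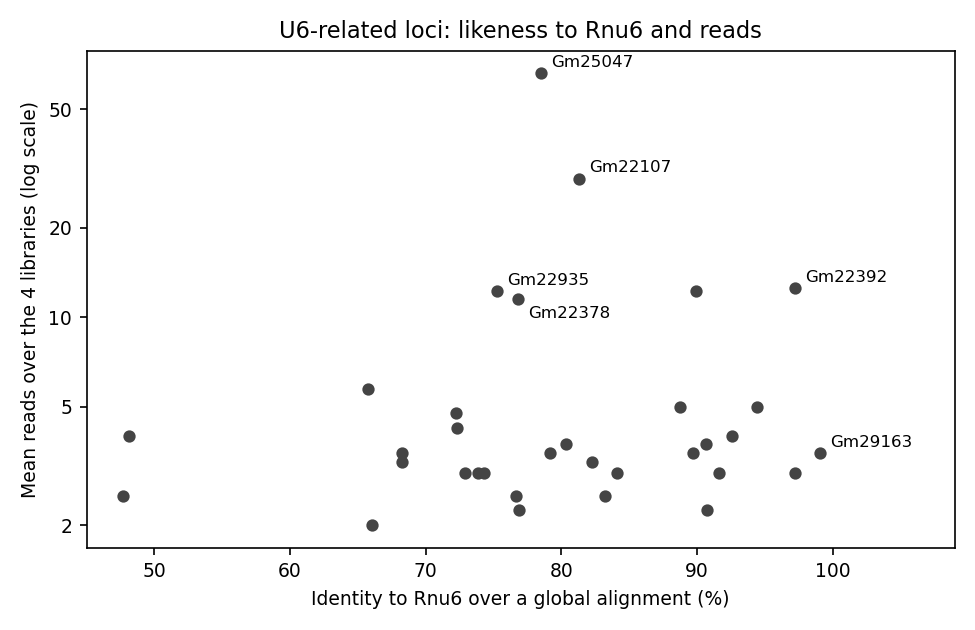
Each point is 1 of the 33 U6-related loci, with its identity to Rnu6 over a global alignment (%, x axis) and its mean reads over the 4 libraries (log scale, y axis). Gm25047 and Gm22107, with 66 and 29.3 reads, lie near 80% identity, and Gm29163, the locus most like Rnu6, had 3.5 reads.

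Gm25047 and Gm22107, the loci with the most reads, were not those most like Rnu6, as the plot of identity against reads shows. Gm22392, 97.2% identical to Rnu6, averaged 12.5 reads. How reads that map to several copies were assigned is not stated, which limits the counts of the loci most like Rnu6. The 8 loci with at least 90% identity summed to 40 and 33 reads in Utx KO libraries and to 28 and 47 reads in WT libraries. The other 25 U6-related loci summed to 143 and 125 reads in Utx KO and 272 and 258 reads in WT. The gap between genotypes in these 25 rests on Gm25047 and Gm22107: the other 23 summed to 113 and 80 reads in Utx KO and 113 and 111 reads in WT.

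The targeted gene checked the labels first. Kdm6a was at 2.20 and 2.12 FPKM in Utx KO livers, against 3.40 and 3.85 FPKM in WT livers. Its log2 fold change was -0.63 (SE 0.13), which did not pass the test (limma, adjusted p = 0.0715), and the groups did not overlap. Limma voom called it lower (log2 fold change -0.74, adjusted p = 0.0335).

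Of the 48 loci, 4 passed the test between genotypes: Gm25047, Gm22107 and Gm26393 fell in Utx KO livers and Gm29163 rose. The test was limma on log2(FPKM + 0.5), Utx KO over WT, over all 11900 genes that averaged at least 1 FPKM, with a Benjamini-Hochberg adjusted p under 0.05. Among all genes tested, 4.74% were called, 1.6% higher and 3.14% lower in Utx KO. Among other genes with few reads, 3.29% of 304 were called at 1 to under 10 reads on average and 4.3% of 1092 at 10 to under 60. The share of the loci was 8.33%, which rests on 4 loci, and its difference from these backgrounds was not tested. Without Utx KO replicate 1 the count was 0, where 0.042% of all genes were called. Without Utx KO replicate 2 it was again 4, but these were Gm25047, Gm22107, Gm24060 and Gm24045, where 1.97% of all genes were called. Without WT replicate 1 it was 1, Gm22935, which is not among the 4 (0.252% of all genes), and without WT replicate 2 it was 0 (0% of all genes). With limma voom on the recovered reads it was 1, Gm25047, lower in Utx KO, where 9.29% of all genes were called and 5.77% were called lower. With the replicate number as a block it was 2, Gm25047 and Gm22107, where 2.61% of all genes were called.

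The direction of the 48 loci leaned towards lower values in Utx KO livers. Their median log2 fold change was -0.59, against 0.01 over all genes tested. It was below 0 in 34 loci and above 0 in 14, while 48.6% of all genes tested were below 0. In 22 loci both Utx KO libraries lay below both WT libraries and in 6 both lay above, against 29.9% and 31.6% of all genes tested, 61.5% in all. A locus with few reads could enter the set through a high group alone, so these counts are descriptions of the chosen loci. By relation, the median was -0.48 over the 33 U6-related loci, -0.61 over the 4 related to 7SK, -0.51 over the 2 related to U1 and -0.77 over the 8 with no match. The groups of loci are small, and no difference between them was tested.

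**Figure D2:**
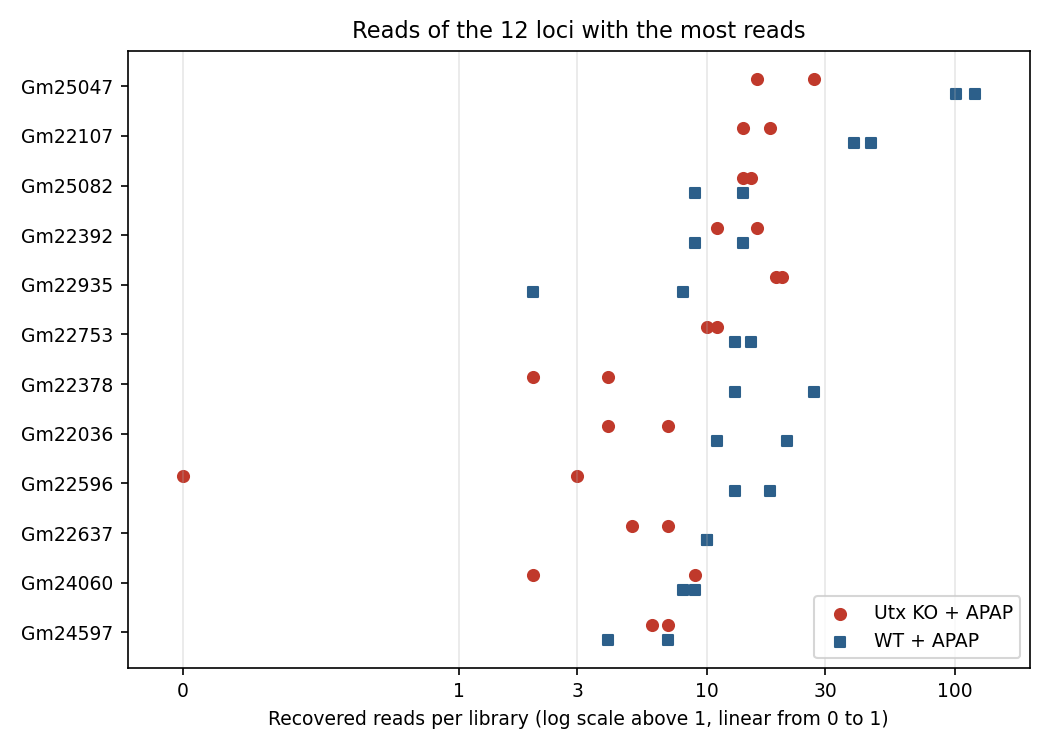
Recovered reads per library (x axis, log scale above 1 and linear from 0 to 1) of the 12 loci with the most reads, with Utx KO libraries as circles above WT libraries as squares. Gm25047 had 16 and 27 reads in Utx KO and 120 and 101 in WT, and Gm22392, the locus 97.2% identical to Rnu6 in this plot, had overlapping groups.

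Gm25047 (chrX:36363899-36364002, plus strand, 104 bases) had by far the most reads and the steepest fall among the called loci. It was at 8.63 and 15.1 FPKM in Utx KO livers, against 68.2 and 61.8 FPKM in WT livers. The recovered reads were 16 and 27 in Utx KO and 120 and 101 in WT, so every Utx KO library lay far below every WT library. The mean was 11.9 ± 4.61 FPKM in Utx KO and 65.0 ± 4.58 FPKM in WT (SD, n = 2 each). The log2 fold change was -2.45 (SE 0.28, limma adjusted p = 0.0315). The ratio of summed reads, scaled to the library totals, was 0.182, with an exact 95% counting interval of 0.128 to 0.253. Without Utx KO replicate 1, WT replicate 1 or WT replicate 2 the adjusted p was 0.0559, 0.085 and 0.0755, with log2 fold changes of -2.06, -2.38 and -2.52. It was called by limma voom (adjusted p = 0.0207).

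Lonrf3, a RING finger gene, lies on the same strand next to Gm25047. In the deposited table it ends 1558 bases before the locus, and its RefSeq span (chrX:36328358-36366857 on GRCm38.p6) takes the locus in. Lonrf3 was at 2.99 and 7.15 FPKM in Utx KO livers, against 27.2 and 18.6 FPKM in WT livers (log2 fold change -2.16, SE 0.42, limma adjusted p = 0.0641). It was called by limma voom (adjusted p = 0.03), among genes with a mean of 5 FPKM or more (0.0488), without Utx KO replicate 2 (0.0379) and with a crossed pairing (0.0456). Both were low in the same libraries, lowest in Utx KO replicate 1. Whether the reads of Gm25047 belong to Lonrf3 transcripts was not tested.

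Gm22107, shown above, lies on the same strand in an intron of Myh9, which encodes the heavy chain of nonmuscle myosin IIA. It was at 7.85 and 10.5 FPKM in Utx KO livers, against 23.1 and 29.3 FPKM in WT livers, from 14 and 18 reads in Utx KO and 39 and 46 reads in WT. The groups did not overlap. Its log2 fold change was -1.47 (SE 0.20, limma adjusted p = 0.0391), and the counting interval of the read ratio of 0.351 ran from 0.226 to 0.533. The call was lost with limma voom (adjusted p = 0.0706) and without Utx KO replicate 1, WT replicate 1 or WT replicate 2 (adjusted p = 0.0982, 0.0766 and 0.0892). Myh9 itself fell, at 34.4 and 40.9 FPKM in Utx KO livers, against 69.5 and 69.0 FPKM in WT livers (log2 fold change -0.88, SE 0.13, limma adjusted p = 0.0431). The Myh9 call was lost when any single library was left out, with adjusted p between 0.074 and 0.155.

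The other called loci rested on a handful of reads each. Gm26393 (chr11:3656663-3656791, minus strand), which matched no named RNA and lies opposite to the strand of Morc2a in an intron, had 2 and 2 reads in Utx KO and 5 and 6 reads in WT. Its log2 fold change was -1.16 (SE 0.19, limma adjusted p = 0.0494). Gm29163, the locus most like Rnu6, lies opposite to the strand of Bckdhb in an intron and had 5 and 5 reads in Utx KO and 2 and 2 reads in WT. Its log2 fold change was 0.95 (SE 0.15, limma adjusted p = 0.0486). In each genotype the reads of a locus were equal or differed by 1, so the spread between these pools was smaller than counting alone would give. The counting intervals of the read ratios were 0.0788 to 1.15 for Gm26393 and 0.673 to 10.2 for Gm29163, and both include 1. Both calls were lost with limma voom (adjusted p = 0.237 and 0.342) and when any single library was left out.

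In some of the other loci with more reads the genotypes did not overlap, yet the test was not passed. Gm22935 lies on the same strand in an intron of Fdps, the farnesyl diphosphate synthase of the cholesterol pathway. It was at 10.8 and 10.7 FPKM in Utx KO livers, against 4.55 and 1.22 FPKM in WT livers (20 and 19 reads in Utx KO, 8 and 2 reads in WT). The log2 fold change was 1.93 (SE 0.52, limma adjusted p = 0.107). It was 2.70 without WT replicate 1, where the test was passed (adjusted p = 0.0465), and 1.15 without WT replicate 2 (adjusted p = 0.0652). Fdps rose, at 3.89 and 3.55 FPKM in Utx KO livers, against 1.43 and 1.47 FPKM in WT livers (log2 fold change 1.11, SE 0.14, limma adjusted p = 0.035). That call was lost when any single library was left out, with adjusted p between 0.0789 and 0.136.

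Gm22378, shown above, lies opposite to the strand of Arsg, a lysosomal sulfatase gene, in an intron. It was at 2.02 and 1.05 FPKM in Utx KO livers, against 6.93 and 15.5 FPKM in WT livers, from 4 and 2 reads in Utx KO and 13 and 27 reads in WT. Its log2 fold change was -2.46 (SE 0.44, limma adjusted p = 0.0558). Among genes with at least 10 reads on average, where 6.65% of all genes were called, its adjusted p was 0.0467. Arsg fell, at 2.83 and 1.79 FPKM in Utx KO livers, against 9.02 and 9.93 FPKM in WT livers (log2 fold change -1.85, SE 0.21, limma adjusted p = 0.0315). The Arsg call was lost without Utx KO replicate 1, WT replicate 1 or WT replicate 2 (adjusted p = 0.0559, 0.0832 and 0.0833).

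**Figure D3:**
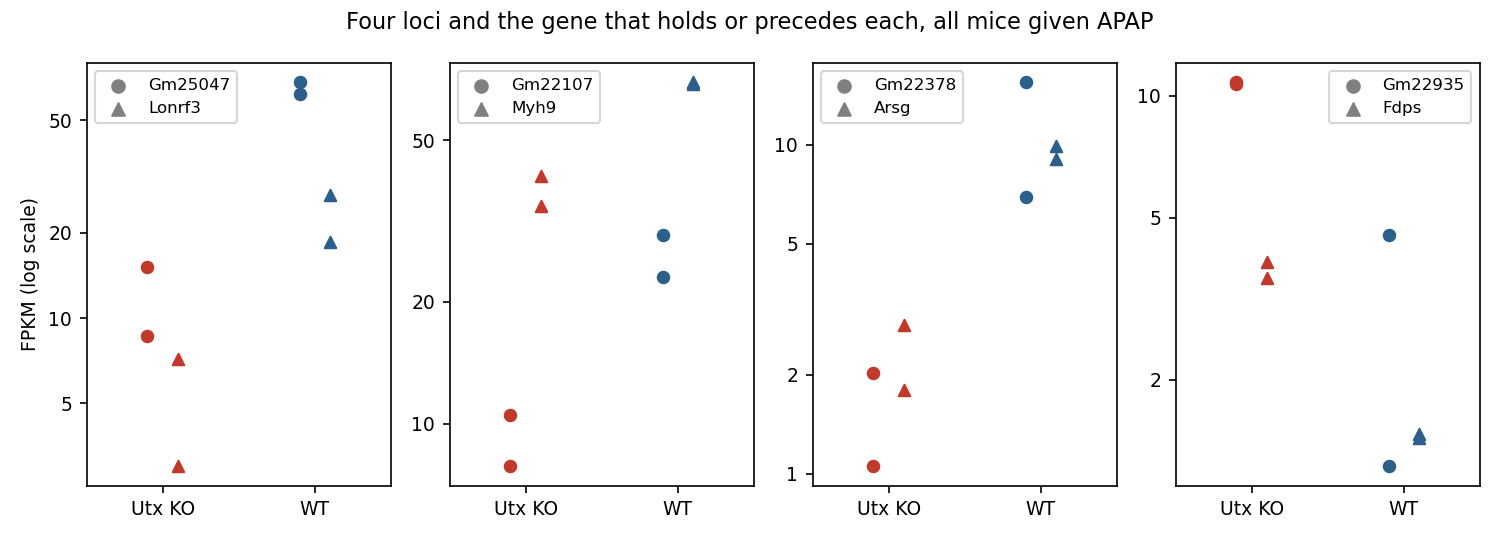
FPKM (log scale, y axis, a separate scale per panel) of 4 U6-related loci (circles) and of the gene that holds or precedes each (triangles), 1 point per library, with Utx KO on the left of each panel and WT on the right. In each panel the locus and the gene lie on the same side: lower in Utx KO for Gm25047 and Lonrf3, Gm22107 and Myh9, and Gm22378 and Arsg, and higher in Utx KO for Gm22935 and Fdps. The 4 pairs were picked by hand, so their shared direction is a description only. Of all 43 loci with a tested overlapping gene, 25 had the same sign as that gene.

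The loci related to 7SK, the RNA that holds the elongation factor P-TEFb inactive, matched Rn7sk over short stretches only. Gm22596, which matched over 22 bases and lies in an intron of Dnttip1, had 3 and 0 reads in Utx KO and 13 and 18 reads in WT (limma adjusted p = 0.0598). Gm22036, in an intron of the bile acid and organic anion transporter gene Slco1a1, had 7 and 4 reads in Utx KO and 11 and 21 reads in WT (log2 fold change -1.34, SE 0.38, limma adjusted p = 0.113). Gm25082, which matched over 90 bases and overlaps the coding exon of Clk4, had 14 and 15 reads in Utx KO and 14 and 9 reads in WT. Gm24597, in an intron of Acot12, had 6 and 7 reads in Utx KO and 7 and 4 reads in WT. Of these 4 loci, the groups did not overlap in 2, against 61.5% of all genes tested. Limma called 0 of the 4, against 4.74% of all genes (2 of the 4 had an unadjusted p under 0.05), and limma voom called 0. Rn7sk, which the rule left out, fell to 20.2 and 21.9 FPKM in Utx KO livers, against 129 and 100.7 FPKM in WT livers (log2 fold change -2.41, limma adjusted p = 0.0258). The Rn7sk call was lost without Utx KO replicate 1 or WT replicate 2 (adjusted p = 0.0599 and 0.0643).

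The remaining loci among the 12 with the most reads were not called. Gm22392, 97.2% identical to Rnu6 and within an Eny2 exon, had 16 and 11 reads in Utx KO and 9 and 14 reads in WT. The log2 fold change of 0.13 had a 95% interval of -0.63 to 0.89, and the groups overlapped. Gm22753, 89.9% identical to Rnu6 and in an intron of Usp34, had 11 and 10 reads in Utx KO and 13 and 15 reads in WT (log2 fold change -0.48, limma adjusted p = 0.121). Gm22637, in an intron of Fermt2, had 5 and 7 reads in Utx KO and 10 and 10 reads in WT, and Gm24060, in an intron of Cyth1, had 2 and 9 reads in Utx KO and 8 and 9 reads in WT (limma adjusted p = 0.398, and 0.0424 without Utx KO replicate 2). Both matched no named RNA.

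Some sparse loci had most of their reads in 1 genotype, and none passed the test on all 4 libraries without a block. Gm24996, in an intron of the antioxidant regulator gene Nfe2l2, had 8 and 5 reads in Utx KO and 0 and 1 reads in WT. The read ratio was 12.1 with a counting interval of 1.82 to 516 (limma adjusted p = 0.0603, and 0.0473 with a crossed pairing). Gm26424 had 4 and 4 reads in Utx KO and 0 and 2 reads in WT (limma adjusted p = 0.201), with a counting interval of the read ratio of 0.745 to 36.1. It lies 395 bases from Acnat1, an acyl-CoA amino acid transferase gene on the opposite strand, as the deposited table places it, and inside the RefSeq span of that gene. Acnat1 rose, at 19.6 and 22.0 FPKM in Utx KO livers, against 7.62 and 9.92 FPKM in WT livers (log2 fold change 1.21, SE 0.16, limma adjusted p = 0.0391), a call lost when any single library was left out (adjusted p between 0.0643 and 0.1). Gm24045, the locus related to Y RNA, had 0 and 3 reads in Utx KO and 6 and 7 reads in WT (limma adjusted p = 0.166, and 0.0322 without Utx KO replicate 2).

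The fold changes of the loci and of the genes around them were then set side by side. Of the 48 loci, 43 had an overlapping gene that was tested, and 25 of the 43 had the same sign as that gene. The number expected for unrelated genes was not computed. Across these 43 pairs the log2 fold changes had a Pearson correlation of 0.47 and a Spearman correlation of 0.46. Both values of a pair come from the same 4 libraries, and pairs are not replicates. Over the 7 pairs whose locus had at least 10 reads on average, the Pearson correlation was 0.9, the Spearman correlation 0.786, and 6 had the same sign. The exception was Gm25082, at a log2 fold change of 0.23, beside Clk4 at -0.61. For the 23 hosts on the same strand the Pearson correlation was 0.435 and the Spearman correlation 0.491, with the same sign in 15. For the 20 on the opposite strand they were 0.598 and 0.405, with the same sign in 10, so the coefficients give the strands in opposite order. Of the 43 hosts 5 were called: Myh9, Arsg, Dnttip1 and Cyth1 fell and Fdps rose. Among all genes tested 4.74% were called, and the difference from that share was not tested.

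**Figure D4:**
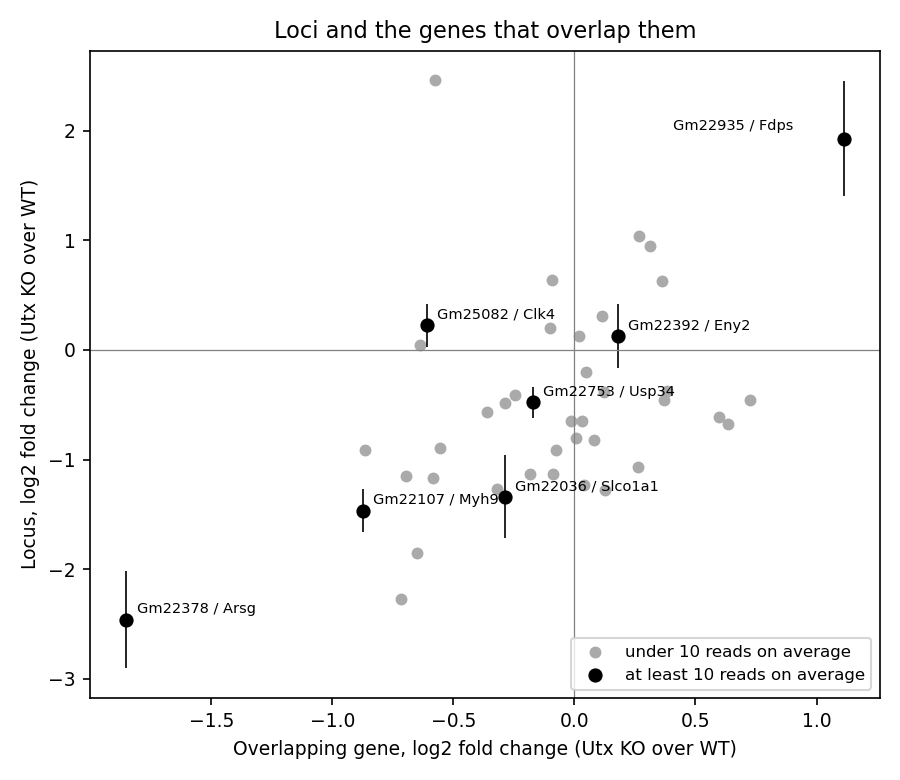
Log2 fold change (Utx KO over WT) of each of the 43 loci with a tested overlapping gene (y axis) against that of the gene (x axis), with black points and SE bars for the 7 loci with at least 10 reads on average and grey points for the rest. The black points run from Gm22378 and Arsg at the lower left to Gm22935 and Fdps at the upper right, with Gm25082 beside Clk4 on the opposite side of 0.

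Dnttip1 (log2 fold change -0.71, limma adjusted p = 0.0498) and Cyth1 (log2 fold change -0.87, limma adjusted p = 0.0498) were at the edge of the threshold, and both calls were lost when any single library was left out. Morc2a and Bckdhb, the hosts of the sparse called loci, had log2 fold changes of -0.59 and 0.31 (limma adjusted p = 0.0722 and 0.31).

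Summed over all 48, the loci took fewer reads in Utx KO livers. They held 249 and 225 reads in Utx KO, against 400 and 434 reads in WT, or 14.0 and 13.8 RPM in Utx KO, against 24.1 and 26.0 RPM in WT. The summed level was 123.1 and 114.6 FPKM in Utx KO, against 209.2 and 236.3 FPKM in WT, a log2 ratio of group means of -0.91. Gm25047 and Gm22107 carried much of that. Without Gm25047 the log2 ratio was -0.56, and without both, a choice made after seeing the data, it was -0.43, with 219 and 180 reads in Utx KO and 241 and 287 in WT.

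The 1899 rows of the same biotypes below the threshold summed to 187 and 180 reads in Utx KO and 193 and 149 reads in WT. The threshold acts on the same values, and a high WT level alone can carry a locus over it, so the sums above and below it are not an independent comparison. In bulk liver, fewer cells of a type and less RNA per cell cannot be told apart.

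**Figure D5:**
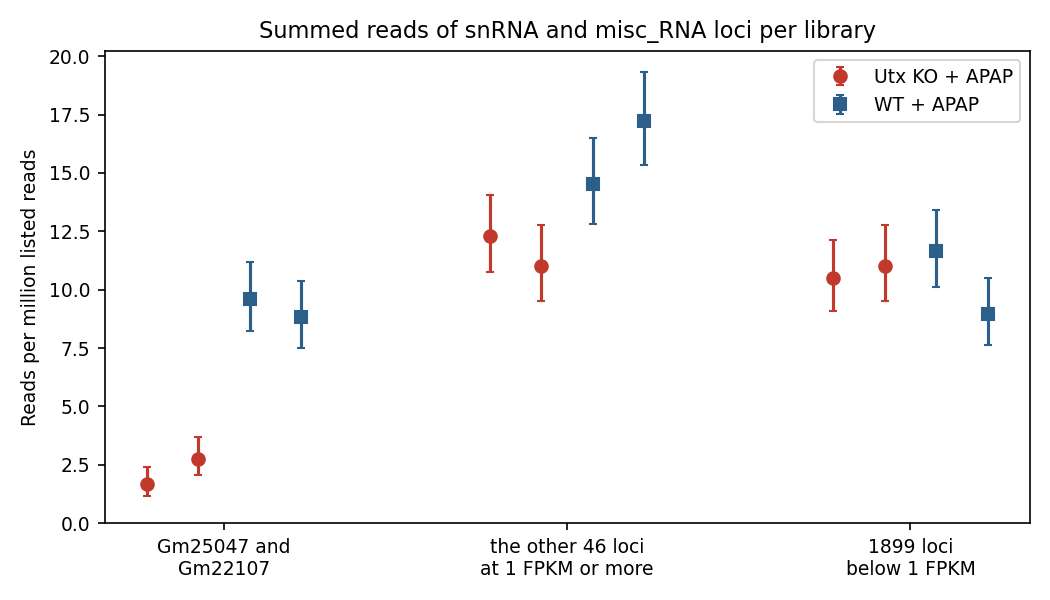
Summed RPM (y axis, from 0) in each library, with Utx KO as circles to the left of WT as squares, for Gm25047 and Gm22107 together, for the other 46 loci above the threshold and for the 1899 rows below it. Bars are 95% Wilson intervals of counting error. Gm25047 and Gm22107 were set apart after their values were seen and the rest was split by the threshold on the same values, so the 3 groups are a description of how the reads are spread.

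Some other measures also differed between these libraries, not all in the same direction. The 2 mitochondrial ribosomal RNAs took 0.108% and 0.158% of listed reads in Utx KO, against 0.244% and 0.251% in WT, and neither passed the test (limma adjusted p = 0.0868 for mt-Rnr1 and 0.0854 for mt-Rnr2). Small nucleolar RNA rows held 43.2 and 47.1 RPM in Utx KO and 50.6 and 67.5 RPM in WT. Small Cajal body RNA rows went the other way, with 3.15 and 3.31 RPM in Utx KO and 2.65 and 2.46 RPM in WT. So did replication-dependent histone genes, with 202 and 250 RPM in Utx KO and 199 and 186 RPM in WT. Rows of the biotype rRNA overlapped, with 333 and 371 RPM in Utx KO and 327 and 346 RPM in WT. Of the neutrophil markers, 4 of 8 tested fell in Utx KO and none of the 10 listed was at 0 in all libraries, with a summed level of 35.9 to 39.6 FPKM in Utx KO and 119 to 182 FPKM in WT. Of the cholangiocyte markers 1 of 3 tested, Sox9, fell. The 5 listed had a summed level of 17.6 to 38.8 FPKM in Utx KO and 102 to 263 FPKM in WT. Most of each sum was Spp1, at 33.7 and 12.9 FPKM in Utx KO and 246.5 and 89.65 FPKM in WT. Spp1 was not called (limma adjusted p = 0.0858). The 6 endothelial markers summed to 46.3 and 48.2 FPKM in Utx KO and 64.7 and 66.1 FPKM in WT (median log2 fold change -0.38). Of these 6, limma called 0 (3 at an unadjusted p under 0.05, 0 by limma voom). Summed Kupffer cell and macrophage markers overlapped, at 134.9 and 230.2 FPKM in Utx KO and 227.2 and 160.6 FPKM in WT (median log2 fold change -0.05). Stellate cell markers overlapped as well, at 40.6 and 34.5 FPKM in Utx KO and 34.5 and 41.4 FPKM in WT (median log2 fold change 0.07). The 8 hepatocyte markers, Alb among them, summed to 42940 and 32710 FPKM in Utx KO and 37210 and 45530 FPKM in WT. Of these 8, limma called 0 (0 at an unadjusted p under 0.05, 0 by limma voom). The part of these measures in the values of the loci was not tested.

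Proteins that make, carry or partner small nuclear RNAs showed no called change. Of 146 genes in 13 lists 136 were tested, and 0 were called by limma, where 4.74% of all genes were. At an unadjusted p under 0.05 there were 25, or 18.4% of the 136, against 27.1% of all genes tested. Limma voom called 5 of the 136, where it called 9.29% of all genes. Their median log2 fold change was 0.01, and the list medians lay between -0.26 (U7 particle and histone mRNA processing, 2 tested genes) and 0.13 (Y RNA and vault proteins, 4 tested genes).

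Among the proteins of U6 and its partners, the 11 tested genes of the LSm ring and U6 processing had a median log2 fold change of -0.06. Usb1, the exonuclease that trims the end of U6, was at 5.00 and 5.18 FPKM in Utx KO livers, against 7.89 and 7.35 FPKM in WT livers (log2 fold change -0.54, limma adjusted p = 0.0642). Lsm5 and Lsm6, subunits of the ring on the U6 tail, had log2 fold changes of -1.02 and 0.43 (limma adjusted p = 0.0955 and 0.0973). The 15 tested tri-snRNP proteins had a median of 0.05. Usp39, needed for tri-snRNP recruitment, was at 1.86 and 3.48 FPKM in Utx KO livers, against 0.266 and 0.52 FPKM in WT livers (log2 fold change 1.79, SE 0.34, limma adjusted p = 0.0603). Limma voom called it higher (adjusted p = 0.0453), as did limma among genes with at least 10 reads.

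The shared core and the other particles gave medians as close to 0. The 7 Sm core genes had a median log2 fold change of -0.03, with Snrpd1 at 25.6 and 32.5 FPKM in Utx KO livers and 40.4 and 40.0 FPKM in WT livers (limma adjusted p = 0.136). The 20 proteins of the U1 and U2 particles had a median of -0.05, the 9 of the minor spliceosome 0.06, the 16 of assembly and transport 0.03 and the 11 of snRNA transcription 0.02. The 14 genes of Integrator, the complex that cleaves nascent snRNA, had a median of 0.06. Within it Ints6 was at 1.75 and 1.76 FPKM in Utx KO livers, against 2.73 and 3.20 FPKM in WT livers (log2 fold change -0.62, limma adjusted p = 0.0883), and Ints2 had a log2 fold change of -0.67 (limma adjusted p = 0.101). Limma voom called both lower (adjusted p = 0.0294 and 0.0453).

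The lists for the other small RNAs were alike. The 9 tested signal recognition particle genes had a median log2 fold change of -0.01, with Srp54, the subunit that binds signal peptides, at 3.63 and 3.19 FPKM in Utx KO livers and 1.64 and 1.96 FPKM in WT livers (log2 fold change 0.77, limma adjusted p = 0.0658). Tep1, a protein of vault particles and telomerase, was at 4.05 and 4.42 FPKM in Utx KO livers, against 2.98 and 2.49 FPKM in WT livers (log2 fold change 0.55, limma adjusted p = 0.0964). Both were called higher by limma voom (adjusted p = 0.0412 and 0.0499). The 9 tested proteins of RNase P and MRP had a median of 0.06, and the 9 of trimming and decay -0.04.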

How the data were processed

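Poly(A)-selected liver RNA of 2 Utx KO and 2 WT pools of 2 mice each was sequenced, per the labels. The submitters' processing notes name HISAT2 2.0.5 and the build mm10 (GRCm38.p6). No counting program is named in the sources used here. The authors deposited 1 table of FPKM for 54149 genes, with coordinates and lengths per the file headers, and 0 sample columns were left out. The total implied by the deposited FPKM was 0.943 to 1.05 times the listed reads of a library.

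The test was limma (version 3.58.1, R 4.3.3) on log2(FPKM + 0.5) (eBayes with a mean-variance trend, two-sided, Benjamini-Hochberg), over genes that averaged at least 1 FPKM. It was tried beforehand on simulated reads with a single dispersion for all genes. Recovery was not split by depth, so the simulation does not show how the test performs at the few reads of most of these loci. Fold changes on this scale understate the change of low genes. With 2 pools per group, p-values rest on the spread between pools, which eBayes moves towards the trend over all genes tested. The fit had 2 residual and 2.59 prior degrees of freedom, so the trend weighed more than a gene's own pools. Biological spread between single mice is not measured. Whole reads recovered from the FPKM steps were tested with limma voom as an alternative. Counting intervals are exact (95%) and cover counting error only, since PCR copies are not independent molecules.

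Sequences and overlaps came from GENCODE M21 on GRCm38, which held all 48 coordinates, and gene spans from RefSeq on GRCm38.p6. Some sequences are not reported here. Families were assigned with BLAST 2.17.0 and identities computed with Biopython 1.88. Named were the called loci, the 12 with the most reads, those at the threshold, their hosts and, per list, genes with the smallest p. Gm24996, Gm24045 and Gm26424, and the neighbouring genes Lonrf3 and Acnat1, were added after their values were seen. The members and gene lists were chosen with earlier results of these data known. The alternatives were other pseudocounts, filters, scalings and models, a replicate block, and each library left out. The deviations of same-numbered libraries correlated at -0.14, and no label says that a number marks shared animals.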

Additional observations from a re-analysis of the deposited data

How the results depend on the processing

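The call of 4 loci was 4, 4, 3, 4, 3, 4 and 3 under pseudocounts of 0.1 and 1, a mean of at least 5 FPKM, the median of ratios, no mean-variance trend, a robust fit and at least 10 reads, with 6 loci tested at 5 FPKM and 8 at 10 reads. It was 0 with no filter on low values, 2 relative to the own listed reads, 1 with limma voom and 2 with the replicate block, and 0 to 4 with 1 library left out. Loci called higher were 1, and 0 with no filter, a mean of at least 5 FPKM, the own listed reads, limma voom, at least 10 reads or the replicate block, and 0 to 1 with 1 library left out. Loci called lower were 3, and 0 with no filter, 1 with limma voom, and 0 to 4 with 1 library left out. Calls over all genes were 564, and 0 with no filter, 280 with no trend, 1105 with limma voom, 310 with the replicate block and 0 to 234 with 1 library left out. Pathway calls were 0, and 5 with limma voom and 1 with at least 10 reads. A crossed pairing of the replicates, chosen after seeing the data, called 7 loci, 6 of them lower, and 552 genes. The cause of these moves was not tested. When a library was left out, its group's lone sample was assumed to vary like the other group.

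The summed level (log2 ratio -0.91) was -0.56 without Gm25047, -0.43 without Gm25047 and Gm22107, and -0.99 to -0.82 with 1 library left out. Signs turned only in values close to 0 or with wide errors. With 1 library left out, Gm22392 ranged over -0.215 to 0.473 (-0.097 without Utx KO replicate 1), Gm24060 over -1.83 to 0.011, Gm24597 over -0.114 to 0.366 and Alb over -0.309 to 0.121 (0.028 without WT replicate 2). Fermt2 ranged over -0.031 to 0.003, and was 0.048 on own listed reads. Acot12 ranged over -0.06 to 0.1 (-0.05 without WT replicate 1), and Lsm10, a U7 particle gene, over -0.064 to 0.291. Relative to own listed reads the median log2 fold change of all genes was 0.07, against 0.01 in the main fit. Depth limits 40 of the 48 loci, at under 10 reads each on average.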
